A study of Oryctolagus cuniculus with 12 samples.

Results

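RLA-DRB1 and CTSE are the 2 genes with a symbol in these data that belong to the class II route of antigen presentation. They were taken by their identifiers, ENSOCUG00000001396 for RLA-DRB1 and ENSOCUG00000001856 for CTSE, out of 17301 genes measured in each library. Both passed the filter on low values that left 12794 genes for testing. RNA was sequenced from the uterine body in 12 New Zealand White rabbits, 1 library per animal and 3 animals per group, and the labels describe separate animals. The LPS+CsA group received 4 mg/kg of lipopolysaccharide (LPS), an outer-membrane component of Gram-negative bacteria, by infusion, and 20 mg/kg of cyclosporine A (CsA), a calcineurin inhibitor that blocks T cell activation, by intramuscular injection. The LPS group received the same infusion and an injection without CsA, and the CsA group a saline infusion and the CsA injection. The Control group received saline by infusion and an injection without CsA. All animals, those of the Control group included, had their cycles synchronised with eCG and hCG, and the uterine body was collected 3 h into treatment. The labels disagree on whether the infusion was intrauterine or intravaginal, whether the injection without CsA was its solvent or saline, and whether injections followed the infusion by 3 h.

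Class II molecules are heterodimers of an alpha and a beta chain that carry peptides from the endosomal pathway to the cell surface, where CD4 T cells read them. Dendritic cells, macrophages and B cells make them at rest, and many other cells, epithelia included, make them after exposure to interferon-gamma. RLA-DRB1 is the rabbit gene for a DR beta chain, the chain that carries most of the variable part of the peptide groove. CTSE is cathepsin E, an aspartic protease of endosomes that takes part in the breakdown of proteins for class II loading, in work on mouse and human cells, and is also abundant in the epithelium of the stomach.

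Levels are given as FPKM, fragment numbers scaled by transcript length and by the mapped fragments of the library, as the authors deposited them. The deposited values sum to between 580000 and 747200 FPKM per library, and 11945 to 12398 genes reached 1 FPKM. CsA replicate 2 stood farthest out on the first principal component of the genes tested (19.9% of the variance) and LPS replicate 1 on the second (17.1%). Symbols exist only for genes that the authors placed in their tables of differences, which hold 437 identifiers, 308 of them with a symbol. Both RLA-DRB1 and CTSE stand in these tables for LPS against Control, for LPS+CsA against LPS, and for opposite directions between the 2 comparisons. The opposite directions described below were therefore part of how these genes came to have a symbol and are not independent evidence. Of 15 uterine epithelial markers, SOX9 and FOXJ1 had a symbol, and none of 14 stromal and smooth muscle markers had one, so the labelled tissue could not be checked against its defining markers here.

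RLA-DRB1, the DR beta chain, stood at 67.4, 31.4 and 33.8 FPKM in LPS+CsA uteri. In LPS uteri it stood at 19.2, 10.9 and 18.1 FPKM. CsA uteri had 37.0, 14.0 and 18.9 FPKM, and Control uteri 29.7, 36.3 and 57.1 FPKM. All 3 LPS libraries lay below all 3 Control libraries and below all 3 LPS+CsA libraries, while the CsA libraries ran from the level of LPS to the level of Control. Group means were 44.2 ± 20.1 FPKM in LPS+CsA, 16.1 ± 4.49 in LPS, 23.3 ± 12.1 in CsA and 41.0 ± 14.3 in Control (SD, n = 3). In order of mean level the groups ran LPS+CsA, Control, CsA and LPS, and each neighbour in that order overlapped with the next. In bulk tissue, fewer cells that make a transcript and less of it per cell cannot be told apart.

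CTSE, the endosomal protease, stood at 11.0, 10.3 and 11.7 FPKM in LPS+CsA uteri and at 24.2, 34.1 and 10.5 FPKM in LPS uteri. CsA uteri had 7.30, 58.7 and 18.6 FPKM, and Control uteri 13.0, 8.17 and 9.16 FPKM. The LPS+CsA and Control libraries were low and close together, whereas in LPS and CsA uteri some libraries were high. LPS replicate 3 lay within the Control range and CsA replicate 1 below it. Group means were 28.2 ± 27.0 FPKM in CsA, 22.9 ± 11.9 in LPS, 11.0 ± 0.701 in LPS+CsA and 10.1 ± 2.53 in Control (SD, n = 3). That is also the order of the groups, and each neighbour overlapped with the next. The highest CsA library held 8.05 times the CTSE of the lowest, against 1.59 times in Control uteri.

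**Figure D1:**
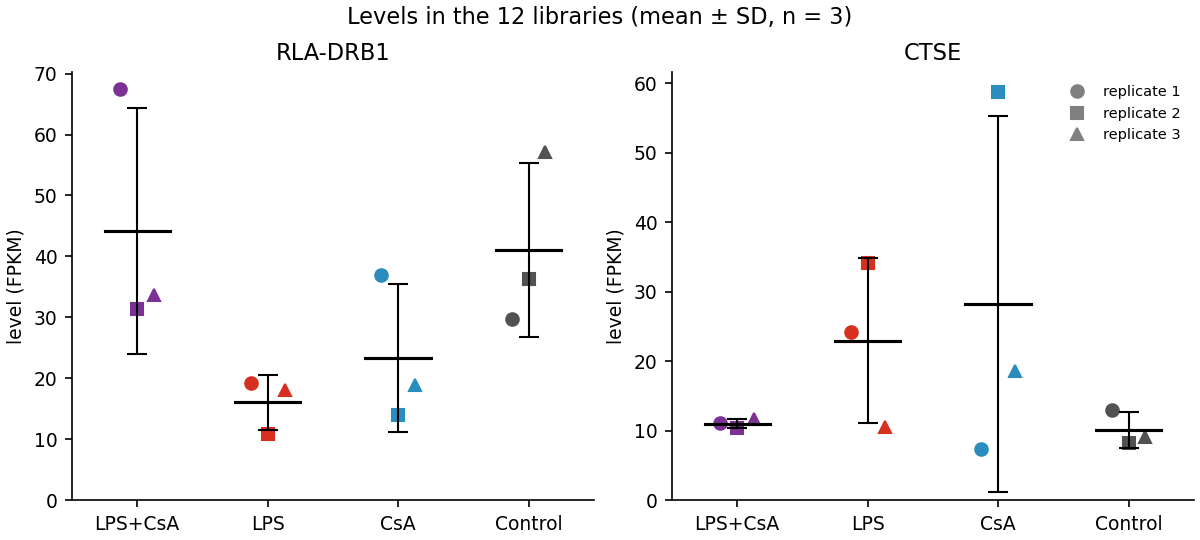
Level in FPKM (vertical axis, from 0) of RLA-DRB1 (left) and CTSE (right) in each of the 12 libraries, by group; symbols mark the replicate number, horizontal lines the mean and bars the SD of 3 libraries. The 3 LPS libraries of RLA-DRB1 lie between 10.9 and 19.2 FPKM, below every Control and LPS+CsA library, whereas CTSE spreads from 7.30 to 58.7 FPKM within the CsA group.

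Both genes varied more between animals of a group than most genes did. The SD within groups, on the scale of log2(FPKM + 1), was 0.55 for RLA-DRB1 and 0.84 for CTSE, against a median of 0.23 over the genes tested. These values stood at percentiles 90.0 and 96.7 of those genes. Within a library, RLA-DRB1 ranked between percentiles 49.1 and 90.2 of the tested genes by FPKM, and CTSE between percentiles 38.4 and 88.8.

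LPS uteri were first set against Control uteri, the response to LPS alone. RLA-DRB1 averaged 16.1 ± 4.49 FPKM in LPS uteri and 41.0 ± 14.3 FPKM in Control uteri (SD, n = 3), a ratio of means of 0.391. CTSE averaged 22.9 ± 11.9 FPKM in LPS uteri and 10.1 ± 2.53 FPKM in Control uteri (SD, n = 3), a ratio of 2.27. In the fit over all genes and libraries with limma, on the scale of log2(FPKM + 1), RLA-DRB1 differed by -1.29 (SE 0.40, 95% interval -2.16 to -0.41) and was 97th by p. After Benjamini-Hochberg adjustment over the 12794 genes it did not pass at 5% (limma adjusted p = 0.750). CTSE differed by 0.99 (SE 0.60, 95% interval -0.33 to 2.30, adjusted p = 0.818). The limma test passed 0 of the genes tested in this comparison, with a smallest adjusted p of 0.405. At an unadjusted p under 0.05, 525 genes (4.1%) stood higher and 314 (2.45%) lower in LPS, RLA-DRB1 among the lower ones. The groups did not overlap for RLA-DRB1, as for 5.24% of the genes tested in the same direction and 8.42% in the other. For that gene the two-sided exact permutation test gave p = 0.1, the smallest that 3 against 3 animals allow, and 0.7 after adjustment over the 14 such tests made. For CTSE, LPS replicate 3 lay within the range of the Control libraries, and the exact p was 0.2. Without LPS replicate 2 the CTSE difference was 0.64 on the log2 scale.

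LPS+CsA uteri were then set against LPS uteri, the response to CsA where LPS was present, a comparison that shares the LPS libraries with the first. RLA-DRB1 averaged 44.2 ± 20.1 FPKM in LPS+CsA uteri and 16.1 ± 4.49 FPKM in LPS uteri (SD, n = 3), a ratio of 2.75. CTSE averaged 11.0 ± 0.701 FPKM in LPS+CsA uteri and 22.9 ± 11.9 FPKM in LPS uteri (SD, n = 3), a ratio of 0.481. In the limma fit RLA-DRB1 differed by 1.36 on the log2 scale (SE 0.40, 95% interval 0.48 to 2.23, adjusted p = 0.587), 114th by p. CTSE differed by -0.85 (SE 0.60, 95% interval -2.16 to 0.46, adjusted p = 0.738). The limma test passed 0 genes here as well, with a smallest adjusted p of 0.458. At an unadjusted p under 0.05, 620 genes (4.85%) stood higher, RLA-DRB1 among them, and 411 (3.21%) lower in LPS+CsA. In the direction of RLA-DRB1 8.81% of genes had groups that did not overlap, and 6.86% in the other. The exact permutation test gave p = 0.1 for RLA-DRB1, the smallest possible, and 0.3 for CTSE, whose groups overlapped. Of the LPS libraries, replicate 3 was at the level of LPS+CsA for CTSE. The log2 difference of CTSE was -0.50 without LPS replicate 2 and -1.31 without LPS replicate 3.

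CsA without LPS was set against Control next. RLA-DRB1 averaged 23.3 ± 12.1 FPKM in CsA uteri and 41.0 ± 14.3 FPKM in Control uteri (SD, n = 3). The log2 difference was -0.85 (SE 0.40, 95% interval -1.72 to 0.02, limma adjusted p = 0.932), and -0.56 without CsA replicate 2. CTSE averaged 28.2 ± 27.0 FPKM in CsA uteri and 10.1 ± 2.53 FPKM in Control uteri (SD, n = 3). Its log2 difference of 0.97 (SE 0.60, 95% interval -0.35 to 2.28, limma adjusted p = 0.932) rested largely on CsA replicate 2. It was 0.23 without that library and 1.65 without CsA replicate 1, the lowest of the group. Both genes had overlapping groups, where 5.75% of the genes tested had groups apart with CsA higher and 3.68% with CsA lower. In this comparison limma passed 0 genes (smallest adjusted p 0.292), and 375 (2.93%) stood higher and 219 (1.71%) lower in CsA at an unadjusted p under 0.05.

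LPS+CsA uteri were set against CsA uteri and against Control uteri in turn. Against CsA uteri, RLA-DRB1 differed by 0.92 on the log2 scale (SE 0.40, 95% interval 0.05 to 1.79, limma adjusted p = 0.710), and by 0.58 without LPS+CsA replicate 1. CTSE differed by -0.83 (SE 0.60, 95% interval -2.14 to 0.49, limma adjusted p = 0.757), and by -0.09 without CsA replicate 2 or -1.51 without CsA replicate 1. Against Control uteri, RLA-DRB1 differed by 0.07 (95% interval -0.80 to 0.94, limma adjusted p = 0.993) and CTSE by 0.14 (95% interval -1.18 to 1.45, limma adjusted p = 0.991). These intervals leave room for a change of nearly 1 log2 unit in RLA-DRB1 and more in CTSE, in either direction. RLA-DRB1 was at -0.27 without LPS+CsA replicate 1 and at -0.13 without Control replicate 1, and CTSE at 0.01 without Control replicate 2 and at 0.32 without Control replicate 1. In both comparisons limma passed 0 genes (smallest adjusted p 0.696 against CsA and 0.942 against Control). At an unadjusted p under 0.05, 536 genes (4.19%) stood higher, RLA-DRB1 among them, and 356 (2.78%) lower in LPS+CsA than in CsA. Against Control 457 (3.57%) stood higher and 160 (1.25%) lower in LPS+CsA. For both genes the LPS+CsA group overlapped with CsA, where 6.51% of genes had groups apart with LPS+CsA higher and 6.04% lower, and with Control, where 6.88% did so higher and 3.01% lower.

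The difference between the LPS effect with CsA and the LPS effect without it was tested as an interaction in the same fit. For RLA-DRB1 the LPS difference was 0.92 on the log2 scale in the presence of CsA and -1.29 in its absence, so that the interaction was 2.21 (SE 0.56, 95% interval 0.97 to 3.44). Its limma p was 0.00237, 28th of the 12794 genes, and did not pass after adjustment (limma adjusted p = 0.9997). The authors listed RLA-DRB1 and CTSE for opposite directions on the same libraries, so their interactions and this rank are not independent evidence. For CTSE the LPS difference was -0.83 with CsA and 0.99 without it, an interaction of -1.82 (SE 0.84, 95% interval -3.67 to 0.04, limma adjusted p = 0.9997), or -1.08 without CsA replicate 2. Over all genes 1.75% had an interaction above 0 and 1.31% one below 0 at an unadjusted p under 0.05, or 224 and 168 genes, and 0 passed, with a smallest adjusted p of 0.497. Averaged over both CsA states, the LPS effect was -0.18 for RLA-DRB1 and 0.08 for CTSE on the log2 scale (limma adjusted p = 0.818 and 0.952). Averaged over both LPS states, the CsA effect was 0.25 for RLA-DRB1 and 0.06 for CTSE (limma adjusted p = 0.769 and 0.974). With single libraries left out, the averaged LPS effect ran from -0.35 (without LPS+CsA replicate 1) to 0.0069 (without CsA replicate 1) for RLA-DRB1 and from -0.26 (without CsA replicate 1) to 0.45 (without CsA replicate 2) for CTSE. The averaged CsA effect ran from 0.06 (without CsA replicate 1) to 0.40 (without CsA replicate 2) for RLA-DRB1 and from -0.31 (without CsA replicate 2) to 0.40 (without CsA replicate 1) for CTSE. The limma test passed 0 genes for either averaged effect (smallest adjusted p 0.364 for LPS and 0.433 for CsA). At an unadjusted p under 0.05, 7.22% of genes stood higher and 4.06% lower with LPS, and 6.76% higher and 3.74% lower with CsA. For the averaged effects, where permutation within the other factor could reach 0.005, the exact p was between 0.61 and 0.925.

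**Figure D2:**
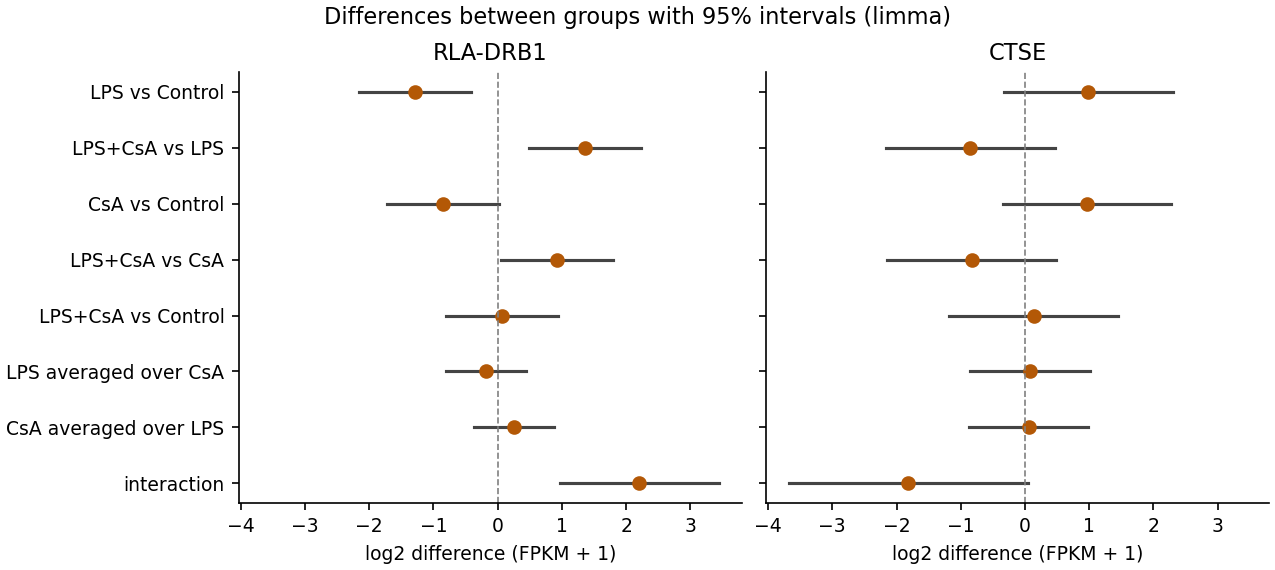
Differences in log2(FPKM + 1) (horizontal axis) of RLA-DRB1 (left) and CTSE (right) in 8 comparisons (rows), with the limma estimate as a point and its 95% interval, not adjusted for the number of genes, as a line; the interaction is the LPS effect with CsA minus that without. The intervals of RLA-DRB1 lie off 0 for LPS against Control, LPS+CsA against LPS, LPS+CsA against CsA and the interaction, those of CTSE include 0 throughout, and none passed after adjustment.

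The balance between the 2 genes differed from library to library. RLA-DRB1 stood at 6.11, 3.04 and 2.88 times the FPKM of CTSE in LPS+CsA uteri and at 0.794, 0.320 and 1.72 times in LPS uteri. The ratio was 5.07, 0.238 and 1.02 in CsA uteri and 2.29, 4.44 and 6.23 in Control uteri. In CsA and LPS uteri the library with the highest CTSE, replicate 2 in both groups, also had the lowest RLA-DRB1. Over the 12 libraries, Pearson's r of log2(FPKM + 1) was -0.76 and Spearman's rho was -0.74. These pooled values include the differences between groups, for which both genes were listed in opposite directions on the same libraries, and are a description with no test. On deviations from the group means, r was -0.67 (exact permutation p = 0.0586 within groups) and rho was -0.69 (exact permutation p = 0.0671). Neither passed at 5% in this setting. With a pseudocount of 0.1, rho was -0.71 (exact permutation p = 0.0471) and r was -0.68 (exact permutation p = 0.0579). After median-of-ratios rescaling or quantile normalization the exact permutation p was 0.0702 to 0.0733. Passing at 5% thus depended on the setting. Without LPS+CsA replicate 1 and LPS replicate 2, the libraries farthest from the median of RLA-DRB1, the pooled r was -0.77 and rho -0.81 over the 10 remaining libraries. For the deviations r was then -0.76 (exact permutation p = 0.132) and rho -0.44 (exact permutation p = 0.326). This was the single relation between the 2 genes that was computed, pooled and within groups, in each of these settings.

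**Figure D3:**
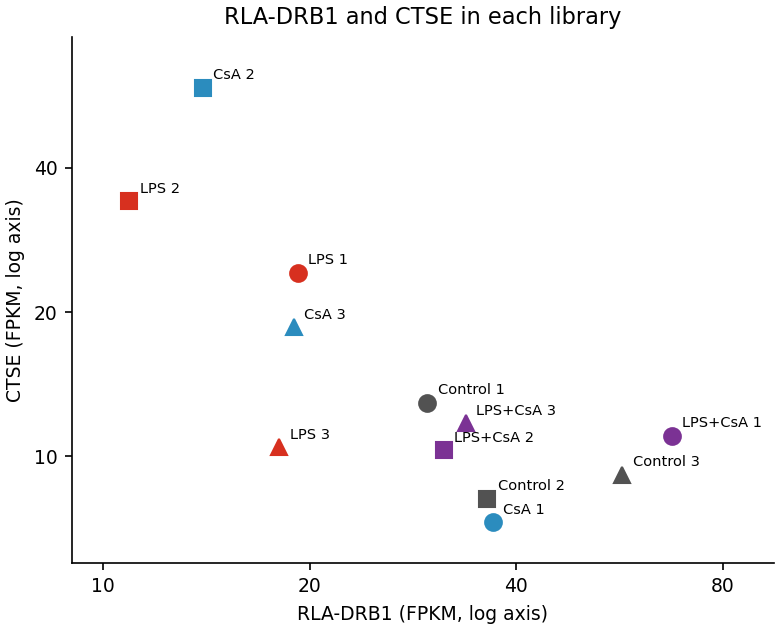
RLA-DRB1 (horizontal axis) against CTSE (vertical axis), both in FPKM on log axes, for each of the 12 libraries, coloured by group and labelled with the group and replicate number. CsA replicate 2 and LPS replicate 2, with 58.7 and 34.1 FPKM of CTSE, lie at the low end of RLA-DRB1 with 14.0 and 10.9 FPKM.

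Reads per gene were deposited for the 9 libraries of the LPS+CsA, LPS and Control groups, for the listed genes alone, and whether they are raw is not stated. RLA-DRB1 had 1602, 867 and 1030 reads in LPS+CsA uteri, 626, 383 and 612 reads in LPS uteri, and 793, 1063 and 1393 reads in Control uteri. As with FPKM, all LPS libraries were below the others. The reads differed by less than the FPKM did. The log2 ratio of mean reads was -1.003 for LPS against Control and 1.11 for LPS+CsA against LPS, and that of mean FPKM was -1.35 and 1.46. Behind 1 FPKM of RLA-DRB1 stood 23.8 to 30.5 reads in LPS+CsA uteri, 32.6 to 35.1 in LPS uteri and 24.4 to 29.3 in Control uteri. The highest value was 1.48 times the lowest, against a median of 1.39 over 41 genes present in both tables with at least 20 reads and over 0.5 FPKM in every library, and 12 of the 41 had a ratio at least that high. What moved the reads and the FPKM apart was not tested.

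CTSE had 386, 377 and 407 reads in LPS+CsA uteri, 871, 1215 and 392 reads in LPS uteri, and 472, 248 and 344 reads in Control uteri. Here reads and FPKM gave close differences, with log2 ratios of means of 1.22 from reads and 1.18 from FPKM for LPS against Control. For LPS+CsA against LPS they were -1.08 and -1.06. Behind 1 FPKM of CTSE stood 30.4 to 37.6 reads.

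The authors' deposited table for LPS against Control gives RLA-DRB1 a log2 fold change of -1.01 (p = 0.000179), the 51st smallest p of 283 listed genes, and CTSE 1.21 (p = 0.00095), the 81st. The authors' deposited table for LPS+CsA against LPS gives RLA-DRB1 1.12 (p = 4.96e-05), 24th of 234, and CTSE -1.07 (p = 0.0013), 76th. For CsA against Control, the authors' deposited table of opposite directions gives -0.83 for RLA-DRB1 and 1.49 for CTSE. A header of these tables names edgeR for the fold changes, and the p-values are those of the authors, given here without an adjusted value. The fold changes of RLA-DRB1 are close to those of the deposited reads and smaller than those of the FPKM.

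**Figure D4:**
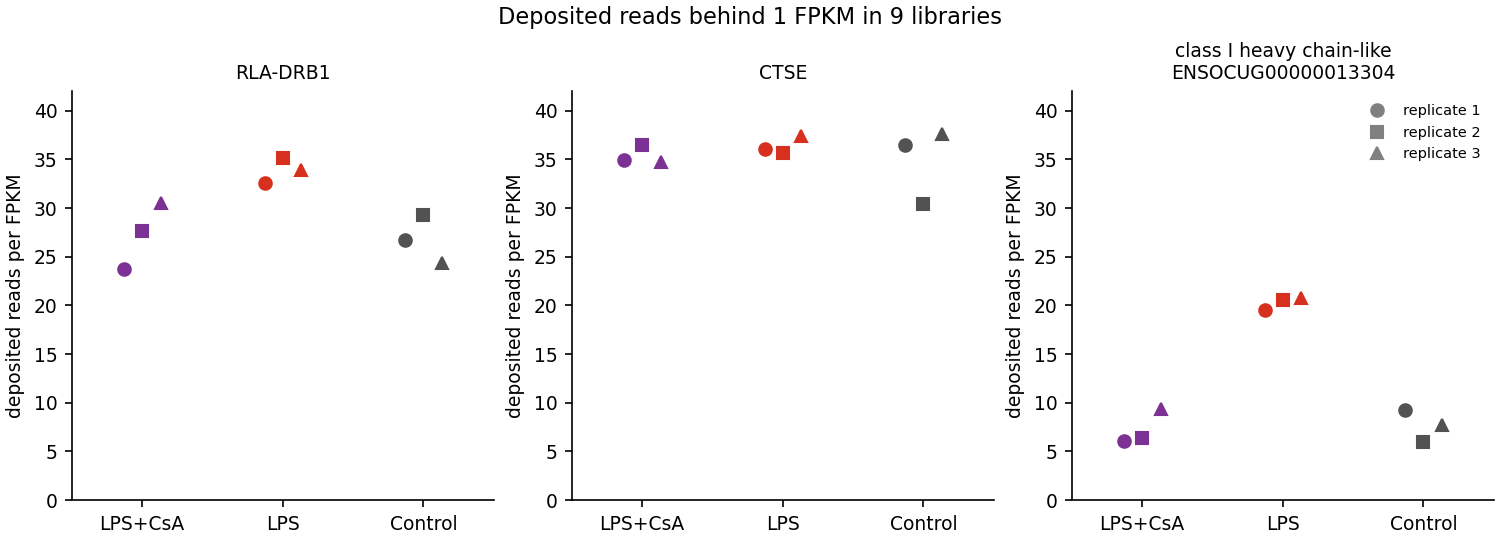
Deposited reads that stand behind 1 FPKM (vertical axis, from 0) for RLA-DRB1, CTSE and the class I-like identifier ENSOCUG00000013304 in the 9 libraries with deposited reads, by group; symbols mark the replicate number. RLA-DRB1 has 32.6 to 35.1 reads per FPKM in LPS uteri and at most 30.5 elsewhere, CTSE stays between 30.4 and 37.6, and the class I-like identifier runs from 5.93 to 20.7.

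A second DR beta gene stood on the other side of Control in LPS uteri. ENSOCUG00000029731, annotated by the authors as a class II DRB1-4 beta chain-like product, matches LOC100350168 in the RefSeq table of assembly mOryCun1.1 through its deposited KEGG gene number. In that assembly it lies on the same chromosome as RLA-DRB1 with 1 gene between them, LOC100350410. RLA-DR-ALPHA, the DR alpha chain, is there too, with 6 genes between it and RLA-DRB1, and CTSE is on another chromosome. ENSOCUG00000029731 stood at 0.117, 0.0367 and 0.0379 FPKM in LPS+CsA uteri, and at 1.34, 1.26 and 2.58 FPKM in LPS uteri. It stood at 0, 0 and 0.0582 FPKM in CsA uteri and at 0, 0.0704 and 0.0649 FPKM in Control uteri. All 3 LPS libraries were above the other 9, and the gene passed the filter on low values through the LPS libraries alone. Of the genes tested, 8.42% had LPS wholly above Control and 6.86% had LPS wholly above LPS+CsA. The deposited reads were 3, 1 and 1 in LPS+CsA uteri, 40, 38 and 78 in LPS uteri, and 0, 2 and 1 in Control uteri.

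Since this identifier entered the fit through the group in which it is high, its levels are a description and no test of it is given. The authors' deposited tables give it a log2 fold change of 5.54 for LPS against Control and -4.86 for LPS+CsA against LPS, values that depend on the handling of near-zero counts.

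Both identifiers are annotated as DRB1-4 beta chains, so reads could be shared or split between them, and the value of each is uncertain to that extent. Their reads were therefore also summed. The sum was 1605, 868 and 1031 reads in LPS+CsA uteri, 666, 421 and 690 in LPS uteri, and 793, 1065 and 1394 in Control uteri. The LPS libraries stayed below all others in the sum. ENSOCUG00000029731 made up 6.01% (95% Wilson interval 4.44 to 8.08), 9.03% (6.65 to 12.2) and 11.3% (9.15 to 13.9) of the sum in the 3 LPS libraries. In the 5 libraries with 1 to 3 of its reads the share was at most 0.188%, with upper Wilson bounds of 0.405% to 0.682%. In Control replicate 1 it had 0 of 793 reads, and a limit of 3 counts allows a share of up to 0.378%. These intervals cover counting error only and presume raw reads, which is not stated. The authors listed the identifier for differences between the same libraries, so the shares are a description and no test between groups.

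Of the 437 listed identifiers, 3 are annotated to a class II histocompatibility antigen, 2 to a class I antigen, 1 to a cathepsin and 6 to the KEGG pathway of antigen processing and presentation. A gene ontology term that names MHC class II stands on 4 of them. ENSOCUG00000002480, annotated as a DQ alpha chain-like product, the partner of a DQ beta chain in another class II molecule, stood at 17.2, 9.25 and 20.0 FPKM in LPS+CsA uteri and 27.4, 19.8 and 55.7 FPKM in LPS uteri. CsA uteri had 39.5, 8.92 and 31.4 FPKM and Control uteri 10.6, 14.8 and 14.7 FPKM. All LPS libraries were above all Control libraries, as for 8.42% of the genes tested. The LPS and LPS+CsA groups overlapped, and the CsA libraries ran from below the lowest Control library to above LPS replicates 1 and 2. Its log2 differences were 1.18 for LPS against Control (SE 0.51, limma adjusted p = 0.750) and -1.03 for LPS+CsA against LPS (SE 0.51, limma adjusted p = 0.641). Without LPS replicate 3 they were 0.77 and -0.62. Thus in LPS uteri this alpha chain stood on the opposite side of Control from RLA-DRB1, and neither difference passed the adjusted test.

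ENSOCUG00000023743, annotated as a heat shock 70 kDa protein 1B-like product, a chaperone that the KEGG pathway of antigen processing includes, had its lowest mean in LPS uteri, like RLA-DRB1. It stood at 4.12, 4.66 and 2.87 FPKM in LPS+CsA uteri, 1.83, 0.230 and 0.695 FPKM in LPS uteri, 2.40, 4.64 and 0.670 FPKM in CsA uteri, and 4.19, 4.58 and 3.34 FPKM in Control uteri. The LPS libraries lay below all Control and LPS+CsA libraries and overlapped with the CsA libraries. Of the genes tested, 5.24% had LPS wholly below Control and 8.81% had LPS wholly below LPS+CsA. The log2 difference was -1.47 for LPS against Control (SE 0.41, limma adjusted p = 0.750) and 1.42 for LPS+CsA against LPS (SE 0.41, limma adjusted p = 0.587).

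**Figure D5:**
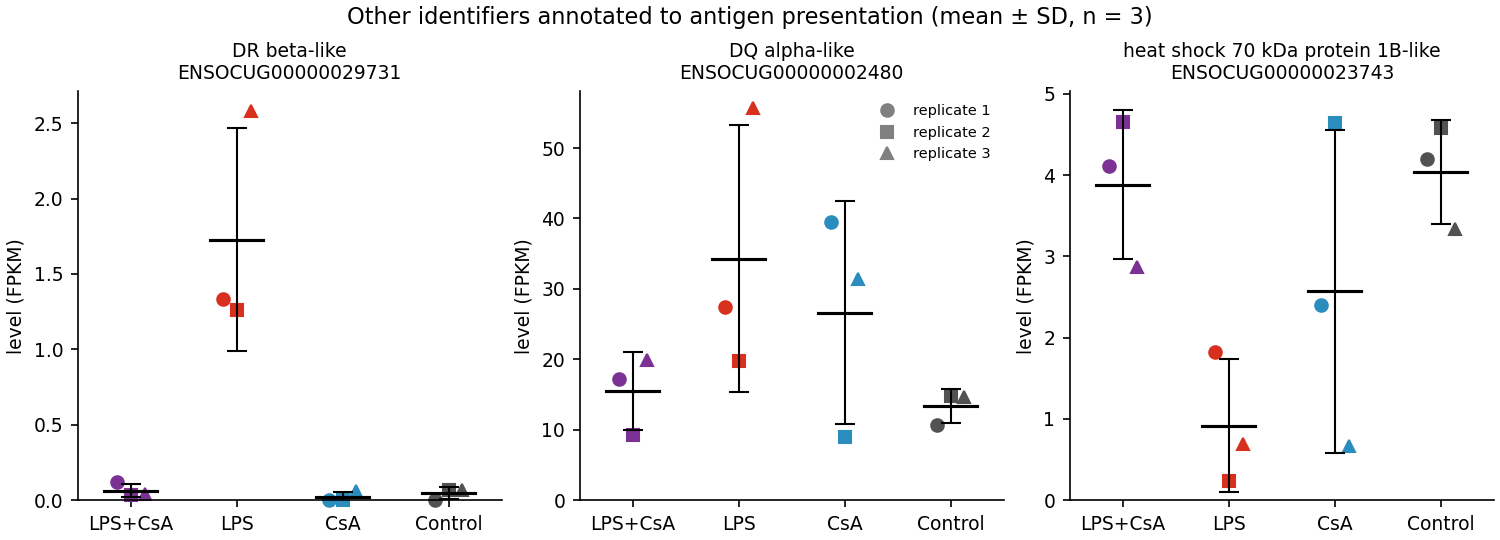
Level in FPKM (vertical axes, each from 0) of 3 other identifiers annotated to antigen presentation, the DR beta-like ENSOCUG00000029731, the DQ alpha-like ENSOCUG00000002480 and the heat shock protein-like ENSOCUG00000023743, in each of the 12 libraries by group; lines are means and bars the SD of 3 libraries. The DR beta-like identifier reaches 1.26 to 2.58 FPKM in LPS uteri and at most 0.117 FPKM elsewhere, and the heat shock protein-like identifier has 0.230 to 1.83 FPKM in LPS uteri, overlapping with CsA replicate 3 at 0.670 FPKM.

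The class I antigens, which present peptides of the cytosol to CD8 T cells, were listed under 2 identifiers. ENSOCUG00000013304, annotated from a horse class I heavy chain, stood at 662, 587 and 310 FPKM in LPS+CsA uteri and 301, 347 and 1067 FPKM in LPS uteri. CsA uteri had 197, 1045 and 1025 FPKM and Control uteri 241, 601 and 559 FPKM. By FPKM the groups overlapped, and limma gave a log2 difference of 0.15 for LPS against Control (adjusted p = 0.978) and 0.04 for LPS+CsA against LPS (adjusted p = 0.996). The deposited reads were 4011, 3731 and 2893 in LPS+CsA uteri, 5864, 7127 and 22133 in LPS uteri, and 2239, 3565 and 4294 in Control uteri, with all LPS libraries above the others. The authors' deposited tables, which follow the reads, give 1.80 and -1.72. The reads behind 1 FPKM ran from 5.93 to 20.7, a ratio of 3.50 and the highest of the 41 genes compared. LOC100355380 (ENSOCUG00000010984), annotated as an A-36 alpha chain-like product, had 2.89, 1.53 and 5.68 FPKM in LPS uteri and 1.22, 1.23 and 1.54 FPKM in Control uteri. Its groups overlapped, and it differed by 0.79 on the log2 scale (SE 0.32, limma adjusted p = 0.750), or by 0.43 without LPS replicate 3. Behind 1 FPKM of LOC100355380 stood 29.1 to 32.0 reads in the LPS and Control libraries. Class I genes form a family of close copies, and whether reads were shared between them was not tested.

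Of 39 genes listed for the class II route, from the alpha and beta chains through CIITA, CD74, the DM and DO genes and the endosomal proteases, RLA-DRB1 and CTSE alone had a symbol, and 0 of the 2 passed the adjusted test in either direction in any of the 8 comparisons. Their median log2 difference was -0.15 for LPS against Control and 0.25 for LPS+CsA against LPS, against medians of 0.02 and 0.01 over all genes tested, with 1 gene on each side of 0 in both. None of 19 genes of the class I route had a symbol, and of 21 cathepsins and aspartic proteases CTSE was the single one. The listed genes that no symbol in the authors' tables matched were not analysed here.

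Lists of immune cell markers were read beside RLA-DRB1. Of 14 markers of B cells and plasma cells, JCHAIN, MZB1 and DERL3 had a symbol, all of them genes of antibody secretion. Their summed level was 69.0 to 122 FPKM in LPS+CsA uteri, 16.4 to 26.5 FPKM in LPS uteri, 15.4 to 44.8 FPKM in CsA uteri and 37.3 to 132 FPKM in Control uteri. In this sum, mostly JCHAIN, the LPS libraries lay below all LPS+CsA and Control libraries, as they did for RLA-DRB1. Over all genes tested, 5.24% had LPS wholly below Control and 8.81% had LPS+CsA wholly above LPS. DERL3 by itself overlapped between LPS (0.719 to 3.25 FPKM) and Control (2.04 to 8.29 FPKM), and MZB1 had 7 to 13 reads in LPS uteri. All 3 antibody secretion genes had negative log2 differences for LPS against Control (median -1.23). For LPS+CsA against LPS their differences were positive (median 1.58), and 0 of the 3 passed. MS4A1 and PAX5, defining genes of B cells, had no symbol. TRAC, the constant part of the T cell receptor alpha chain, was the single symbol of 16 T and NK cell markers. It stood at 2.29 to 5.99 FPKM in LPS+CsA uteri and 0.655 to 1.13 FPKM in LPS uteri. CsA uteri had 2.00 to 3.99 FPKM and Control uteri 2.54 to 4.06 FPKM. TRAC was lowest in all 3 LPS libraries, where it had 8 to 14 reads. The shares of 5.24% and 8.81% given above stand beside its separation from Control and from LPS+CsA as well. No marker of the 22 for macrophages and dendritic cells had a symbol. The part of these cells in the levels of RLA-DRB1 was not tested, and the symbols were chosen by the authors on the same libraries.

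Further lists stood as follows beside the 2 genes. The 8 interferon response genes with a symbol, of 22, summed to 125 to 161 FPKM in LPS+CsA uteri, 44.9 to 103 FPKM in LPS uteri, 76.8 to 1263 FPKM in CsA uteri and 91.2 to 231 FPKM in Control uteri. All 8 had negative log2 differences for LPS against Control (median -1.16) and positive ones for LPS+CsA against LPS (median 0.92), and 0 passed. The 2 comparisons share the LPS libraries, and the symbols came from the authors' lists of differences on the same libraries. The shared direction is therefore a description. HBB2 and ALAS2, of 5 red blood cell genes, summed to 120 to 339 FPKM in LPS+CsA uteri, 110 to 129 FPKM in LPS uteri, 140 to 202 FPKM in CsA uteri and 211 to 380 FPKM in Control uteri. The neutrophil genes S100A8, S100A9 and S100A12, of 9, summed to 14.0 to 527 FPKM in LPS+CsA uteri, 60.2 to 73.3 FPKM in LPS uteri, 16.7 to 399 FPKM in CsA uteri and 8.68 to 277 FPKM in Control uteri, so that all groups overlapped. SOX9 and FOXJ1, epithelial transcription factors, summed to 6.26 to 9.25 FPKM in LPS+CsA uteri, 2.52 to 14.5 FPKM in LPS uteri, 2.86 to 5.76 FPKM in CsA uteri and 3.69 to 4.33 FPKM in Control uteri. In each of these lists 0 genes passed the adjusted test, and their part in the levels of RLA-DRB1 and CTSE was not tested.

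Among 260 other tested genes with a symbol, the 5 whose log2(FPKM + 1) was most like that of RLA-DRB1 over the 12 libraries were KRT75, SLC5A12, KRT82, HBB2 and CHI3L1. KRT75, a type II keratin, had a Pearson r of 0.75 and a Spearman rho of 0.60, and SLC5A12, a lactate transporter, 0.73 and 0.80. KRT82, a hair keratin, had 0.68 and 0.61, HBB2, a beta globin, 0.68 and 0.57, and CHI3L1, a chitinase-like glycoprotein, 0.67 and 0.61. KRT75 averaged 22.6 ± 8.53 FPKM in LPS+CsA, 5.69 ± 0.846 in LPS, 10.9 ± 4.87 in CsA and 23.0 ± 7.91 in Control (SD, n = 3), the same low group as RLA-DRB1. The 5 most like CTSE were MAL, with an r of 0.64 and a rho of 0.71, STAC with 0.59 and 0.59, FAM221A with 0.56 and 0.73, NKAIN1 with 0.54 and 0.43, and CMTM5 with 0.51 and 0.14. MAL, a membrane protein of apical sorting in epithelial cells, averaged 6.34 ± 4.37 FPKM in LPS+CsA, 5.73 ± 0.884 in LPS, 13.2 ± 9.63 in CsA and 2.57 ± 0.346 in Control (SD, n = 3). These correlations describe 12 libraries in 4 groups, and the candidates were listed by the authors for differences between the same groups.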

How the data were processed

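The libraries came from 12 rabbits, 3 in each of 4 groups. The authors deposited FPKM values per gene and library, for which the submitters' processing notes name TopHat2, Cufflinks and Cuffnorm. Not given in the sources used here were versions, genome build and counter. The authors also deposited, for listed genes in 9 libraries, read counts, p-values and log2 fold changes. Headers name edgeR for fold changes only. A deposited column of log2 fold changes for CsA has non-numeric entries. FPKM alone do not give the depth of a library, so no intervals were set on them. The 2 genes, the 11 gene lists and the tests were chosen with earlier results of these data known.

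All tests used log2(FPKM + 1). Genes that reached 1 FPKM in 3 or more libraries were tested with limma 3.58.1 in R 4.3.3, with 1 mean per group over all 12 libraries and a variance trend, two-sided, and adjusted by Benjamini-Hochberg at 5% over 12794 genes. The procedure was tested on simulated data. Exact permutation tests of the mean log2 difference over animals, correlations and figures used matplotlib 3.10.9, scipy 1.17.1 and Python 3.11.15.

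Named in the text were the 2 members, identifiers whose deposited text names class I or class II antigens, a cathepsin or the KEGG pathway, list members with a symbol, and the 5 genes most like each member. Gene neighbours and names came from the RefSeq table of assembly mOryCun1.1, matched by the deposited KEGG gene numbers. Its coordinates served only to put the genes in order, and sequences were not analysed here.

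Alternatives tried were no filter or a minimum mean of 5 FPKM, a pseudocount of 0.1, quantile normalization, median-of-ratios rescaling, only the compared groups, no trend, array weights, the replicate block and each library left out. The deposited counts in place of FPKM and the summed DR beta reads were added after seeing the data. The labels do not say that replicate numbers pair animals, and the model left them out.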

Additional observations from a re-analysis of the deposited data

Results flagged for a closer look

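RLA-DRB1 had LPS effects of opposite sign with and without CsA, 0.92 and -1.29 on the log2 scale, and its CsA effects with and without LPS, 1.36 and -0.85, also had opposite signs. The tested difference is the same 2.21 for both (SE 0.56, limma adjusted p = 0.9997), and it was between 1.87 and 2.59 when single libraries were left out. For CTSE the LPS effect was -0.83 with CsA and 0.99 without it, and the difference of -1.82 had a 95% interval of -3.67 to 0.04. For the DQ alpha-like ENSOCUG00000002480 the difference between the LPS effects was -1.76 (SE 0.73), and for the heat shock protein-like ENSOCUG00000023743 it was 2.07 (SE 0.58). For the class I-like LOC100355380 the difference between the CsA effects with and without LPS was -0.67 (SE 0.45). All of these have a limma adjusted p of 0.9997 and did not pass. The comparisons share libraries, so the values are not independent of each other. The authors listed all of these identifiers for differences on the same libraries, so the values are not independent evidence either.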

How the results depend on the processing

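Over 330 alternative values with a test for RLA-DRB1 and CTSE, 320 kept the direction and the side of the threshold, 10 changed sign, and 0 passed the adjusted test (lowest adjusted p 0.417). The 6 values from deposited reads have no test and kept the direction. With array weights, RLA-DRB1 was -0.059 for LPS+CsA against Control and CTSE -0.16 for CsA averaged over LPS. With single libraries left out, RLA-DRB1 ran from -0.27 to 0.33 for LPS+CsA against Control and from -0.35 to 0.0069 for LPS averaged over CsA. CTSE ran from -0.26 to 0.45 for LPS averaged over CsA and from -0.31 to 0.40 for CsA averaged over LPS. ENSOCUG00000013304 ran from -0.42 to 0.49 for LPS against Control and from -0.30 to 0.61 for LPS+CsA against LPS. The cause was not tested. With the deposited reads of both DR beta identifiers summed, RLA-DRB1 for LPS against Control was -0.87, the smallest difference among its alternatives. With no filter, the number of genes passing was 2 for LPS against Control and 2 for LPS+CsA against LPS. These were ENSOCUG00000029731 and ENSOCUG00000026042 in both, identifiers named after their values were seen. ENSOCUG00000029731 stood near 0 FPKM outside the LPS libraries, so its passing is no test of it. With the filter and a pseudocount of 0.1, 0 genes passed in either comparison. The number of genes passing was 1 each for LPS+CsA against LPS, against Control and against CsA when only the groups compared were fitted. With single libraries left out it was 0 to 1 for the interaction and for every pair of groups other than CsA against Control. For CsA against Control it was 0 to 4, 0 to 7 for LPS averaged over CsA and 0 to 3 for CsA averaged over LPS, the highest each time without CsA replicate 1. Of the 18 pairs of same-numbered libraries, 8 had a correlation of deviations over 0.1 (range -0.09 to 0.42). Whether replicate numbers mark pairs or batches was not tested. With the replicate block, limma passed 0 genes in each comparison, and RLA-DRB1 kept -1.29 for LPS against Control (adjusted p = 0.630) and 1.36 for LPS+CsA against LPS (adjusted p = 0.468). Rescaling moved the median of all genes by at most 0.04 on the log2 scale. Depth limits the low genes, of which ENSOCUG00000029731 had 0 to 3 reads in the LPS+CsA and Control libraries.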
